A study of Mus musculus with 6 samples.

Results

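The caspase genes Casp1, Casp2, Casp4, Casp6, Casp8, Casp9 and Casp12 and the adaptor gene Apaf1 were followed in RNA-seq of whole mouse retina after injury of the optic nerve. The genes were taken by their symbols, and all 8 were found among the 35485 genes of every sample table. The mice were wild type C57BL/6, 12 weeks of age, and the retinas were taken 2 days after surgery. The optic nerve crush (ONC) group, labelled NC, received a 10-second forceps injury at a distance of 2 mm from the eye, and sham mice had surgery without this injury, so surgical access to the nerve was common to both groups. There were 3 ONC and 3 sham samples, and each was a pool of RNA from 6 retinas of 6 mice, so the spread between samples is a spread between pools.

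Caspases are cysteine proteases that cut proteins after aspartate and are made as inactive precursors. In the mitochondrial route to apoptosis, cytochrome c binds Apaf1, and Apaf1 then assembles into the apoptosome, the platform on which the initiator Casp9 becomes active. Casp8 is the initiator at death receptors and Casp2 the initiator on a platform built by Pidd1 and Cradd, whereas Casp6 is counted with the executioners. Casp1, Casp4 (the mouse caspase known as caspase-11) and Casp12 form the inflammatory group. Retinal ganglion cells (RGCs), the neurons whose axons run in the optic nerve, die by apoptosis in the days to weeks after their axons are cut or crushed. Because caspases are made as inactive precursors, a transcript level is a measure of the precursor that can be made and not of protease activity.

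The genes differed in level in these retinas, and their promoters differed in the density of CG dinucleotides. The windows of Casp9 and Apaf1, partners in the apoptosome, are shown beside those of Casp1 and Casp4, neighbours on chromosome 9 with few or no reads. They run from 250 bases before to 50 bases after the start of transcription in RefSeq on GRCm38.p6, 5′ to 3′, and the capitals mark CG.
Casp9, chr4:141793362-141793661, plus strand: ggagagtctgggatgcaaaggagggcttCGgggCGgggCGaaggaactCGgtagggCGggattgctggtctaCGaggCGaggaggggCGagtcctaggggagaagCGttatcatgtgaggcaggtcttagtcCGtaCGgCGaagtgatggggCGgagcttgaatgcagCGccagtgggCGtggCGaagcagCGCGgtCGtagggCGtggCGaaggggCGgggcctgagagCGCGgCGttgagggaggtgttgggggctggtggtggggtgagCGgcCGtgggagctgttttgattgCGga
Apaf1, chr10:91082694-91082993, minus strand: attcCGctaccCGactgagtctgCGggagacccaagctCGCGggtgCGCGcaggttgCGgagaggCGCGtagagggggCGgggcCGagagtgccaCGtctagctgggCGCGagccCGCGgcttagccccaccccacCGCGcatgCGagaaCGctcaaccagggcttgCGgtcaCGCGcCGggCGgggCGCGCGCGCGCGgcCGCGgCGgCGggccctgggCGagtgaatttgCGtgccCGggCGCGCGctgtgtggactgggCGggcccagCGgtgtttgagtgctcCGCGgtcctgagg
Casp1, chr9:5298267-5298566, plus strand: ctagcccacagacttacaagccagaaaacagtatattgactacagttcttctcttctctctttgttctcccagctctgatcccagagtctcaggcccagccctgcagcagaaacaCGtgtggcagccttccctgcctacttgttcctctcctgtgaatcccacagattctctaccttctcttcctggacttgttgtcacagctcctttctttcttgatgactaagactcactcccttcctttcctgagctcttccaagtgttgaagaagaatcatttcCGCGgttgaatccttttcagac
Casp4, chr9:5308610-5308909, plus strand: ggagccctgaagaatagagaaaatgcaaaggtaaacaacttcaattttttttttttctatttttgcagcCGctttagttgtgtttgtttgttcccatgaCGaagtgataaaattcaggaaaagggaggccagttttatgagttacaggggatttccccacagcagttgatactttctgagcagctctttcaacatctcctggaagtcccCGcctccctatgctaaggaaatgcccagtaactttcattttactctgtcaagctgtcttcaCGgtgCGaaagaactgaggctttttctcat

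CG reads the same on both strands and cannot overlap itself. It occurred 46 times in the window of Apaf1, 28 times in Casp9, 26 times in Casp2 and 16 times in Casp6. It occurred 5 times in Casp8 and in Casp4, and 3 times in Casp1 and in Casp12. Of the 32851 windows in the RefSeq table, which have a median of 7, 33.0% hold 16 or more, 43.6% hold 5 or fewer and 1.65% hold 46 or more. The 4 genes with 16 or more CG were the 4 of highest level in the retina, and the 4 with 5 or fewer had a mean RPKM of 0.349 or less. Within the CG-rich genes the order differed, since Apaf1 had the most CG and Casp9 the highest mean RPKM. The window of Casp8 starts from a transcript 7128 bases downstream of the gene start in the files, while those of the other 7 genes lie within 54 bases of it. This is a description of 8 genes, without a test, and neither methylation nor the binding of any factor was measured.

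**Figure D1:**
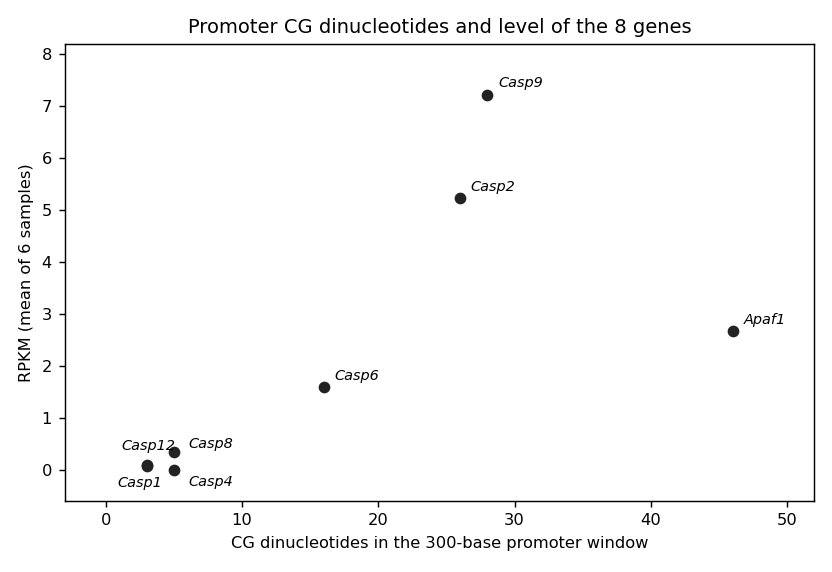
CG dinucleotides in the 300-base promoter window (x axis, count) against the mean RPKM of the 6 samples (y axis), with 1 point per gene. Casp9, Casp2, Apaf1 and Casp6 have 16 to 46 CG and the higher levels, and Casp1, Casp4, Casp8 and Casp12 sit at 3 to 5 CG and an RPKM near 0.

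Total exon reads, the read pairs on the exons of all genes, ranged from 17343945 to 18349331 in sham and from 20019818 to 20358008 in ONC. RPKM is the exon reads of a gene per kilobase of exon scaled to the sum of reads on genes, introns included, and it is the scale on which levels of different genes are compared here. Exons held 70.9% to 76.6% of the reads on genes in sham and 78.5% to 80.4% in ONC, so dividing by reads on whole genes raises the median log2 fold change of all genes to 0.13. TMM normalization, which sets the typical gene at no change, leaves that median at 0.01, and the tests below use it. ONC replicate 1 stood apart from the other ONC pools, with a chi-square per degree of freedom over genes of 13.8 against replicate 2 and 10.8 against replicate 3, compared with 4.54 between replicates 2 and 3 and 5.55 to 9.002 among sham pools.

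In sham retina the order of levels was Casp9, Casp2, Apaf1, Casp6, Casp8, Casp12 and Casp1, with Casp4 listed at 0. The mean RPKM was 6.62 ± 0.276 for Casp9, 4.59 ± 0.501 for Casp2, 2.54 ± 0.363 for Apaf1, 1.56 ± 0.287 for Casp6 and 0.382 ± 0.0992 for Casp8 (SD, n = 3). Each of these was separated from the next in this order by non-overlapping RPKM values, in sham and in ONC. Of the Casp9 exon reads, 75.3% in sham and 74.7% in ONC mapped to a single place in the genome, against 100% for Casp2. The separation, percentile and share of Casp9 given here rest on all exon reads. On unique exon reads per kilobase the order in sham was the same, but separation on that scale is not given. Casp12 at 0.0690 ± 0.0493 and Casp1 at 0.0570 ± 0.0765 (SD, n = 3) overlapped in sham. In ONC, Casp1 also overlapped Casp8, with 0.235 in replicate 1 against 0.232 for Casp8 in replicate 2. Casp9, the highest of them, lay at the 48.0th percentile of the 13670 genes whose group mean RPKM exceeded 0.3 in ONC or in sham, and the median of these genes was 7.04. Casp9 and Casp2 together made up 70.9% of the summed RPKM of the 8 genes in sham and 73.5% in ONC. Casp14, a caspase of the skin, had 1 exon read in 1 sham sample.

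**Figure D2:**
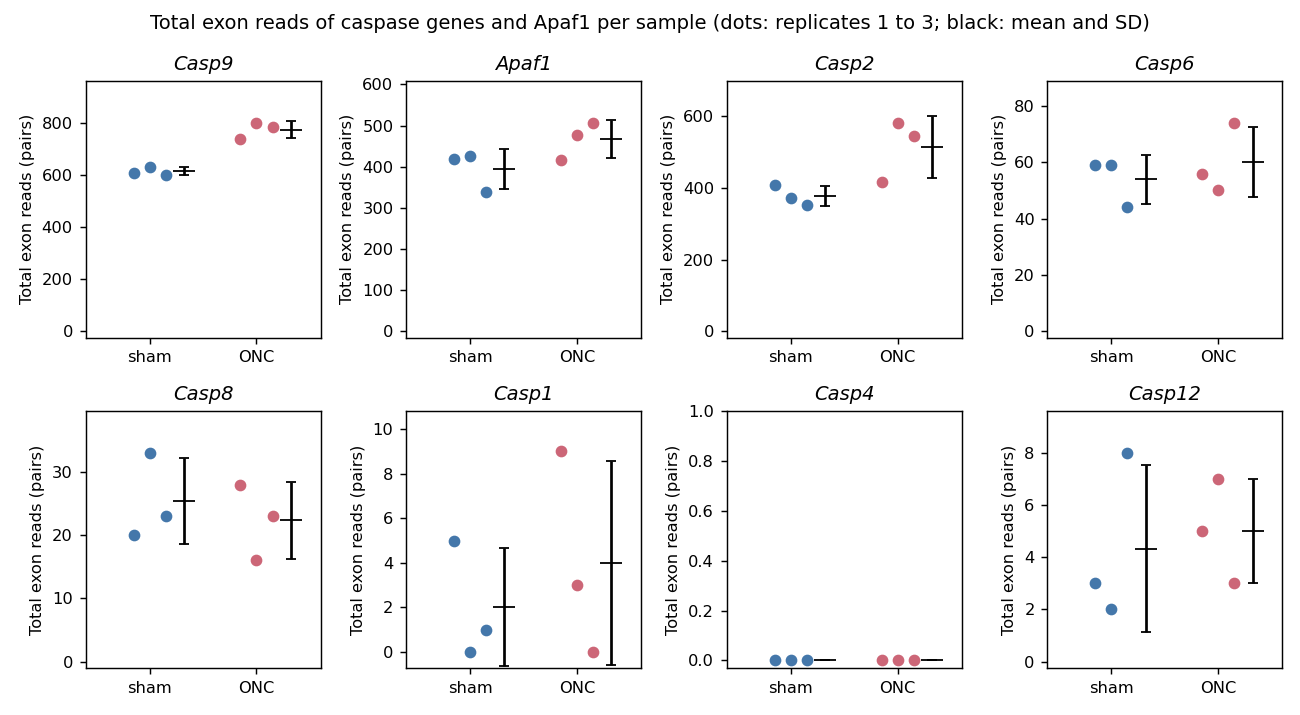
Total exon reads (y axis, read pairs, not normalized, a scale of its own in each panel) of the 8 genes in each sham (blue) and ONC (red) sample, with the mean and SD in black. The 3 ONC values of Casp9, 738 to 800, lie above the 3 sham values, 601 to 631, those of Casp2 are 417 to 582 against 352 to 409, the other genes overlap, and Casp4 has 0 reads throughout. The ONC samples had more exon reads in all, and the share of all genes separated on this scale was not counted. On the RPKM and TMM scales the groups of Casp2 overlap.

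None of the 5 genes that could be tested passed the test between ONC and sham. Those 5, with a group mean RPKM over 0.3, were Casp2, Casp6, Casp8, Casp9 and Apaf1. By edgeR's quasi-likelihood test with Benjamini-Hochberg adjustment over all 13670 genes, 0 of the 5 had an adjusted p under 0.1, while 6.09% of all genes did, 2.38% higher and 3.72% lower in ONC. A fold change above 1.5 was asked for in addition in a stricter count, which again held 0 of the 5 and 1.66% of all genes. DESeq2 also called 0 of the 5, and 0 had an unadjusted p under 0.05, against 16.7% of all genes. The median log2 fold change of the 5 was 0.03 and that of all genes 0.01, with 3 above 0 and 2 below.

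Casp9 is the initiator caspase of the apoptosome. Its exon reads were 609, 631 and 601 in sham and 738, 800 and 782 in ONC, and its RPKM was 6.80, 6.76 and 6.30 in sham and 7.49, 8.25 and 7.74 in ONC. After TMM normalization the counts per sequencing depth (CPM) were 34.8, 34.7 and 35.4 in sham and 37.2, 39.0 and 37.6 in ONC. Every ONC pool was above every sham pool on both scales, and Casp9 was the only one of the 8 genes of which this held. The same holds for 25.4% of all genes on the RPKM scale and for 11% on the TMM scale. Of the 8 genes, 0 had every ONC pool below every sham pool, against 3.45% of all genes on the RPKM scale and 10.8% on the TMM scale. Its log2 fold change was 0.12 (SE 0.09, 95% interval -0.07 to 0.30), with an adjusted p of 0.531 by edgeR's test. Of the Casp9 exon reads, 75.0% mapped to a single place in the genome, and 6.06% of the genes kept had a lower share. The other caspases and Apaf1, where they had reads, had 100%. On unique exon reads alone the log2 fold change was 0.10 (SE 0.10).

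Apaf1 encodes the scaffold on which Casp9 is activated. It had 418, 427 and 340 exon reads in sham and 417, 478 and 507 in ONC, with RPKM of 2.77, 2.72 and 2.12 in sham and 2.51, 2.93 and 2.98 in ONC. The groups overlapped, and the lowest value of all was that of sham replicate 3. The log2 fold change was 0.03 (SE 0.12, 95% interval -0.22 to 0.27, adjusted p = 0.934, edgeR). The ratio of Casp9 to Apaf1 on the RPKM scale lay between 2.45 and 2.97 in sham and between 2.60 and 2.98 in ONC, so it overlapped as well.

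Casp2, the initiator activated by Pidd1 and Cradd, had the lowest p of the 5 genes tested. Its exon reads were 409, 372 and 352 in sham and 417, 582 and 545 in ONC, and its RPKM was 5.14, 4.48 and 4.15 in sham and 4.76, 6.75 and 6.07 in ONC. On the RPKM scale ONC replicates 2 and 3 were above every sham pool, and ONC replicate 1 lay within the sham range. The log2 fold change was 0.23 (SE 0.12, 95% interval -0.03 to 0.49), with an unadjusted p of 0.0809 and an adjusted p of 0.368 by edgeR's quasi-likelihood test. Without ONC replicate 1, the pool that stood apart, it was 0.34 with an adjusted p of 0.0625, in a fit with 2 ONC samples that called 2031 genes, or 14.9% of those tested. Over all 19 alternatives the log2 fold change of Casp2 stayed above 0, from 0.05 to 0.35, and the adjusted p ranged from 0.0625 to 0.954. The lowest of these values, 0.05, came from reads across exon-exon junctions, a count chosen after seeing the data.

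Casp6, an executioner linked to the breakdown of axons and nuclear lamins, had 59, 59 and 44 exon reads in sham and 56, 50 and 74 in ONC. Casp8, the initiator at death receptors, had 20, 33 and 23 in sham and 28, 16 and 23 in ONC. The groups overlapped for both genes. The log2 fold change was -0.06 (SE 0.30, 95% interval -0.68 to 0.56) for Casp6 and -0.39 (SE 0.45, 95% interval -1.34 to 0.56) for Casp8, with adjusted p of 0.943 and 0.718 by edgeR's test. A fold change of 1.5 is 0.58 on the log2 scale, and in both genes the interval included a fall of that size but not a rise of that size. For Casp2, Casp9 and Apaf1 the whole interval lay within a fold change of 1.5 in either direction. These intervals are for whole retina, in which the study puts the share of RGCs as very low. A change confined to RGCs was not measured apart and is not bounded by them.

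The inflammatory caspases were at the limit of detection. Casp1, which activates interleukin-1β in the inflammasome, had 5, 0 and 1 exon reads in sham and 9, 3 and 0 in ONC, or 6 against 12 in all. Casp12, a relative placed at the endoplasmic reticulum, had 3, 2 and 8 in sham and 5, 7 and 3 in ONC, or 13 against 15 in all. The groups overlapped in both, and neither passed the filter on RPKM. In a fit of every gene with a read, the log2 fold change was 0.76 (SE 1.39, adjusted p = 0.843, edgeR) for Casp1 and -0.02 (SE 1.18, adjusted p = 0.995, edgeR) for Casp12. Casp4, the sensor of intracellular lipopolysaccharide, had 0 exon reads in all 6 samples. A count of 0 allows up to 3 reads, which corresponds to an RPKM of 0.0808 to 0.0911 in a single sample and of 0.0142 over the 6 samples, counting error only. These 3 genes follow each other on chromosome 9, with Casp1 at chr9:5298517-5307281, Casp4 at chr9:5308860-5336791 and Casp12 at chr9:5345476-5373034. Between them lie 1578 and 8684 bases.

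The other 5 genes lie apart, in the positions given in the files, which match GRCm38. Casp9 with 9 exons is at chr4:141793612-141815975, Apaf1 with 28 exons at chr10:90989311-91082743, and Casp2 with 11 exons at chr6:42265039-42282496. Casp6 with 7 exons is at chr3:129901425-129914102, and Casp8 with 10 exons at chr1:58795374-58847503. The exon lengths behind the RPKM run from 1432 bases for Casp4 to 6557 bases for Apaf1, so Apaf1 with 395 exon reads per sham pool had a lower RPKM than Casp2 with 378.

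**Figure D3:**
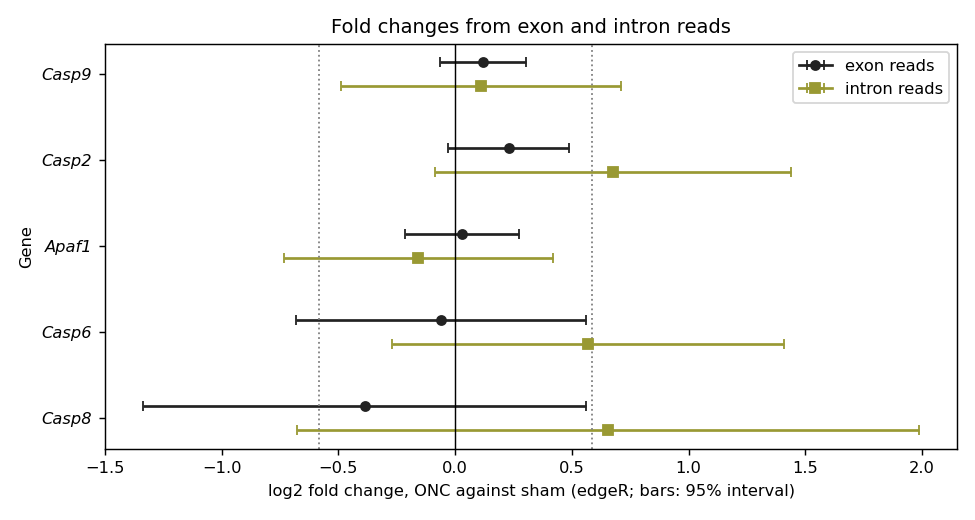
log2 fold change of ONC against sham (x axis) with its 95% interval for the 5 genes kept, from exon reads (black circles) and intron reads (green squares); dotted lines mark a fold change of 1.5. All intervals cross 0, and those from exon reads of Casp9, Casp2 and Apaf1 stay between the dotted lines.

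Reads on introns, which come in part from transcripts not yet spliced, were counted as the reads on the whole gene less those on exons. They made up 8.63% of the reads on the Casp9 gene, 12.6% on Casp2 and 19.2% on Apaf1, near the median of 13.4% over the genes kept. In Casp6 and Casp8 the share was 41.8% and 40.2%, and in Casp12 it was 60.6%. Casp2 had 71, 31 and 50 intron reads in sham and 95, 69 and 70 in ONC, which overlapped. Its log2 fold change in introns was 0.67 (SE 0.36, 95% interval -0.09 to 1.44, adjusted p = 0.354, edgeR). Casp6 had 28, 48 and 23 intron reads in sham and 37, 41 and 69 in ONC, with a log2 fold change of 0.57 (SE 0.39). Casp8 had 16, 13 and 8 in sham and 17, 9 and 33 in ONC, with a log2 fold change of 0.65 (SE 0.62). Both ranges overlapped. The values for Casp9 and Apaf1 were 0.11 (SE 0.28) and -0.16 (SE 0.27). Of the 5 genes, 4 were above 0 in introns and their median was 0.57 against 0.03 over all genes, but 0 of the 5 passed an adjusted p of 0.1 by edgeR's test and 0 had an unadjusted p under 0.05, against 2.7% and 17.2% of the 13391 genes tested. Casp4, without exon reads, had 3, 0 and 3 intron reads in ONC and 0 in each sham sample, and reads of other transcripts inside an intron cannot be told apart from its own. Casp1 had 1 intron read in all, and Casp12 had 4, 4 and 6 in sham and 17, 4 and 8 in ONC.

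Read pairs that cross an exon-exon junction made up 25.1% of the exon reads of Casp9 and 31.6% of Casp2, against a median of 39.7% over the genes kept. The shares were 55.2% for Apaf1, 55.8% for Casp6 and 62.2% for Casp8. Casp9 and Casp2 were below the median and the other 3 genes above it.

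The genes around the caspases were described by 6 lists of 72 genes, of which 71 were in the files and 55 were kept. By edgeR's test, 3 of the 55 passed an adjusted p of 0.1, or 5.45%, against 6.09% of all genes. They were Atf4 and Ddit3, which rose, and Xiap, which fell.

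Of the 8 genes of the apoptosome and of the factors that leave the mitochondria with cytochrome c, 0 passed, and their median log2 fold change was 0.08. Cycs, which encodes cytochrome c, had a mean RPKM of 28.2 ± 1.12 in sham and 28.8 ± 2.71 in ONC (SD, n = 3). Relative to the typical gene its log2 fold change was -0.09 (SE 0.07). Diablo, an antagonist of the inhibitors of apoptosis, had a mean RPKM of 17.3 ± 1.54 and 21.9 ± 2.09 (SD, n = 3). Its log2 fold change was 0.22 (SE 0.09, adjusted p = 0.205, edgeR). Of the 10 inhibitors of apoptosis proteins, 3 were kept. Xiap, which binds and blocks Casp9, had an RPKM of 92.8, 91.9 and 85.7 in sham and 88.4, 81.5 and 78.1 in ONC, and the groups overlapped on this scale. It fell by 0.24 on the log2 scale relative to the typical gene (SE 0.06, adjusted p = 0.0219, edgeR's quasi-likelihood test). That call was lost without sham replicate 2, sham replicate 3 or ONC replicate 3, with limma on log2 RPKM, with division by all reads on genes and with exon-exon reads.

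Of the 14 adaptors and regulators of Casp8 and Casp2, 12 were kept and 0 passed. Their median log2 fold change was 0.24, against 0.01 over all genes, and 11 of the 12 were above 0. An unadjusted p under 0.05 by edgeR's test was found for 1 of the 12, against 16.7% of all genes. Pea15a, which binds the death effector domains of Fadd and Casp8, had a mean RPKM of 192 ± 5.40 in sham and 228 ± 7.87 in ONC (SD, n = 3) and a log2 fold change of 0.13 (SE 0.05, adjusted p = 0.239, edgeR). Casp8ap2, a binding partner of Casp8, had 4.93 ± 0.779 and 5.40 ± 0.146 (SD, n = 3) and a log2 fold change of 0.02 (SE 0.09). Pidd1, listed as Lrdd, had a mean RPKM of 0.446 in sham and 0.501 in ONC.

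Of the 16 genes of the inflammasome and pyroptosis, 9 were kept and 0 passed, with a median of 0.22. Nek7, which licenses the Nlrp3 inflammasome, had a mean RPKM of 13.5 ± 1.004 in sham and 14.2 ± 0.0944 in ONC (SD, n = 3). Il18, a cytokine that Casp1 processes, had 3.996 ± 2.07 and 4.37 ± 0.350 (SD, n = 3). Relative to the typical gene the log2 fold change was -0.04 (SE 0.07) for Nek7 and 0.01 (SE 0.29) for Il18. The values of Il18 were 2.51, 6.36 and 3.11 in sham, so sham replicate 2 alone was above every ONC pool. The largest log2 fold changes of this list, chosen after their values were seen, were 1.47 for Aim2, a sensor of DNA in the cytoplasm, and 1.01 for Gsdmd, the pore protein that Casp1 and Casp4 cut. Their adjusted p were 0.191 and 0.358 by edgeR's test, and their mean RPKM in ONC was 0.481 and 0.569.

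Of 13 caspase substrates of the nucleus and cytoskeleton, 12 were kept and 0 passed, with a median of 0.01. Dnm1l, the dynamin of mitochondrial fission, had a mean RPKM of 41.1 ± 2.17 in sham and 42.3 ± 3.44 in ONC (SD, n = 3). Acin1, a factor of chromatin condensation, had 27.9 ± 2.19 and 32.6 ± 2.46 (SD, n = 3). Relative to the typical gene the log2 fold change was -0.08 (SE 0.06) for Dnm1l and 0.11 (SE 0.07) for Acin1. For neither was the difference past the test.

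Of 11 sensors and effectors of endoplasmic reticulum stress, a setting in which Casp12 has been studied, 2 rose and 0 fell. Atf4, the transcription factor of the integrated stress response, had an RPKM of 120, 112 and 101 in sham and 178, 186 and 173 in ONC and a log2 fold change of 0.56 (SE 0.06). Ddit3, which encodes CHOP, a factor that acts downstream of Atf4, had 42.0, 33.7 and 37.2 in sham and 79.8, 90.2 and 72.9 in ONC and a log2 fold change of 0.98 (SE 0.09). Every ONC pool was above every sham pool in both genes. Casp12 itself stayed between 2 and 8 exon reads in the same samples.

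**Figure D4:**
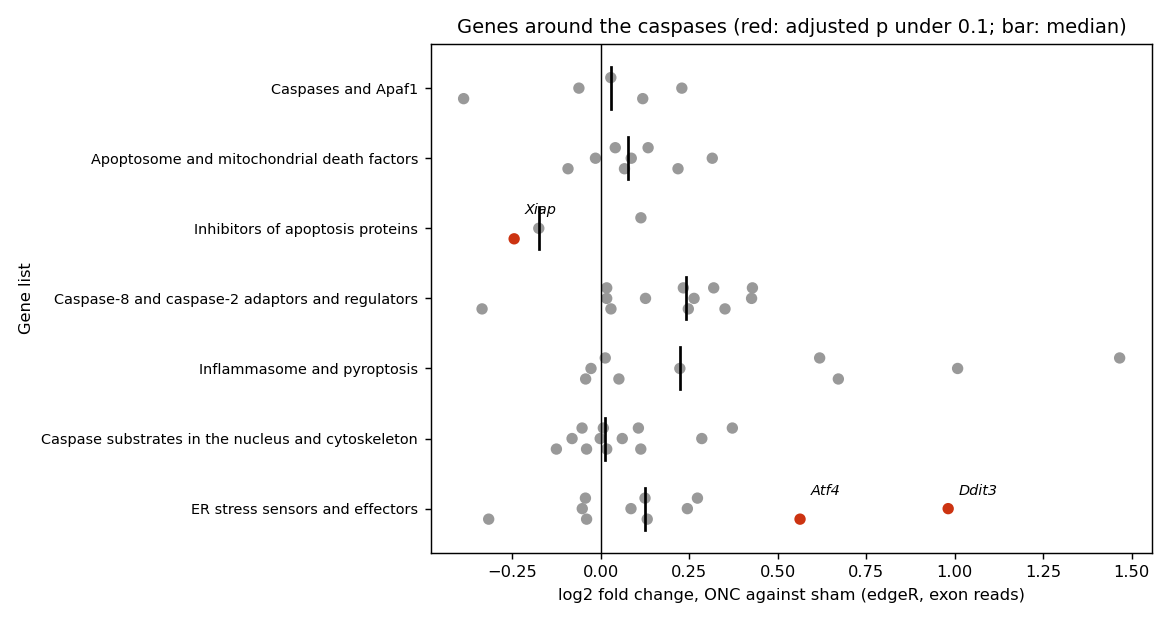
log2 fold change of ONC against sham (x axis) of each gene kept, by list (y axis), with the median as a black bar and genes with an adjusted p under 0.1 in red. Atf4 and Ddit3 among the endoplasmic reticulum stress genes and Xiap among the inhibitors of apoptosis are the genes in red, and no caspase is.

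Marker lists describe the cells behind these samples. The photoreceptor gene Gnat1, the transducin of rods, was at a mean RPKM of 5798 in sham. The sum of 10 photoreceptor markers was 20639 to 21463 in sham and 22607 to 24120 in ONC, with Sag and Pde6b called higher (log2 fold changes of 0.39 and 0.18), while on the TMM scale the log2 ratio of the sums was -0.00306. The summed RPKM of 10 RGC markers, Nefl and Sncg the highest among them, was 453 to 471 in sham and 340 to 357 in ONC, with 8 called lower and 1, Slc17a6, called higher. In bulk samples fewer RGCs and less RNA per RGC cannot be told apart. The sum of 15 markers of microglia and macrophages, Ctss among the highest, was 43.4 to 48.2 in sham and 67.6 to 79.4 in ONC, with 7 called higher. Each of these 3 differences in summed RPKM has a two-sided p of 0.1 in the exact permutation test, the smallest that 3 samples against 3 allow. The sum of 9 neutrophil and monocyte markers, Lyz2 and S100a9 the highest, was 4.42 to 6.42 in sham and 4.17 to 12.8 in ONC, and Ccr2, Mpo, Elane and Ngp were at 0 in all samples. None of the markers of Müller glia and astrocytes (Glul, Apoe), vessels (Kdr, Rgs5) or pigment epithelium (Ttr, Rpe65) passed edgeR's test. The summed RPKM of the Müller glia and astrocyte markers was 1114 to 1240 in sham and 1251 to 1263 in ONC (p = 0.1, exact permutation test). On the TMM scale the log2 ratio of these sums was -0.0555. Lens genes (Crybb2, Cryaa) summed to 8.73 to 64.7 in sham, low in replicates 2 and 3, and to 62.9 to 83.0 in ONC, with 1 of 7 called higher. The part of any of these cells in the caspase values was not tested.

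Genes that followed the caspases most closely over the 6 samples were named as a description, by Pearson r of log2 TMM-normalized values among 11805 genes with a mean RPKM above 1. They were Cgref1 (r = 0.998) and Eltd1 (r = 0.992) for Casp9, Yeats4 (r = 0.994) and Narg2 (r = 0.992) for Casp2, Gm10767 (r = 0.994) and Hsd17b10 (r = 0.993) for Apaf1, and Fut11 (r = 0.987) and Mafg (r = 0.982) for Casp6. All points share the same 6 libraries. With 6 samples, 283 genes had an r over 0.9 with Casp9 and 268 with Casp2, 98 with Apaf1 and 28 with Casp6. Casp1, Casp4, Casp8 and Casp12 had too few reads for this. Cgref1 had an RPKM of 3.69, 3.54 and 3.44 in sham and 4.75, 5.86 and 4.98 in ONC, so its groups, like those of Casp9, did not overlap. Yeats4, like Casp2, was within the sham range in ONC replicate 1 and above it in ONC replicates 2 and 3. Cgref1 and Yeats4 were picked for their likeness in these same samples, so the shared patterns are not a separate result.

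The fold changes of these genes were recomputed under other choices of processing. Casp9 stayed between 0.09 and 0.24 on the log2 scale over 19 alternatives and Casp8 between -0.68 and -0.01 over 18, neither passing the test in any. Apaf1 ranged from -0.06 to 0.15 and Casp6 from -0.26 to 0.15, so their direction was not fixed. Casp2 passed in 1 of 19, the one without ONC replicate 1.

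**Figure D5:**
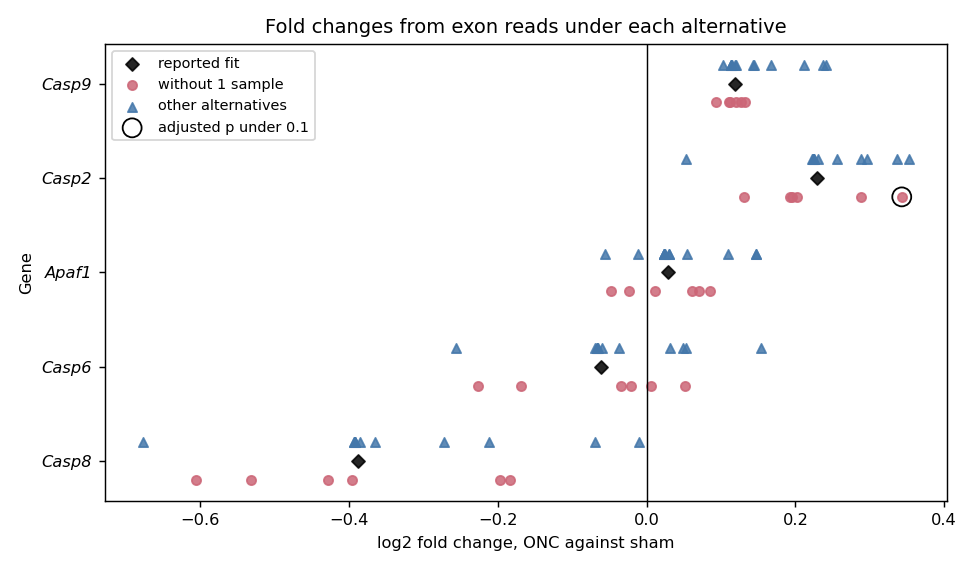
log2 fold change from exon reads (x axis) of each gene in the reported fit (black diamond), in the 6 fits without 1 sample (red circles) and under the other alternatives (blue triangles), with a ring around the value with an adjusted p under 0.1. Casp9 and Casp2 lie above 0 and Casp8 below 0 throughout, Apaf1 and Casp6 lie on both sides, and the ring is on Casp2 without ONC replicate 1.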

How the data were processed

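The authors mapped read pairs with CLC Genomics Workbench 6.0.1 and deposited, for each sample, counts of total and unique exon reads and of total and unique reads on whole genes, not normalized, with an intact pair counted as 1. They also deposited RPKM values, the exon reads per kilobase of exon scaled to the reads on genes. The labels and the study name mm9, but 99.9% of the gene positions overlap GRCm38.p6 in RefSeq and 10.2% overlap NCBIM37, so positions are those of GRCm38. A group mean RPKM column in 1 file was not used. The substrate gene Sptan1 is not analysed here.

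Total exon reads per gene were compared with edgeR 4.0.16 (TMM, glmQLFit, glmQLFTest) under R 4.3.3. The model held the condition alone, adjustment was by Benjamini-Hochberg, and genes with an adjusted p under 0.1 were called among the 13670 whose group mean RPKM exceeded 0.3 in ONC or in sham. The biological coefficient of variation was 9.17%. Standard errors of log2 fold changes were derived from the F statistic. Intron reads were fitted likewise over the 13391 genes kept by filterByExpr. The edgeR fit of exon reads was tested on simulated data, and the intron fit and the alternatives were not. DESeq2 1.42.0, limma 3.58.1 on log2(RPKM + 0.1) and log2(RPKM + 1), other scalings, filters and counts, the replicate number as a block and leaving out each sample were the alternatives. Other steps used Python 3.11.15, numpy 2.4.6, pandas 2.3.3, scipy 1.17.1 and matplotlib 3.10.9. Positions of promoter windows and their sequences are from RefSeq, and all 8 genes matched. The windows matched 75.7% of the genes in the files, so levels of all genes were not compared by CG content.

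The genes named are the 8 genes, other caspases, every pathway gene that passed the test or else the 2 of highest RPKM in its list, the 2 of highest RPKM and those at 0 in a marker list, and the 2 most similar in pattern to each of the 8 genes with a mean of at least 50 exon reads. Some genes that this rule names are not reported here. The 8 genes and the lists were chosen with earlier results of these data known. Pooled samples were labelled as separate samples, and p-values measure the spread between pools.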

Additional observations from a re-analysis of the deposited data

How the results depend on the processing

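Of the 5 genes tested in exon reads, 0 passed in the reported fit and under every alternative except the fit without ONC replicate 1, in which Casp2 passed (0.34, adjusted p = 0.0625, edgeR), so leaving out 1 sample gave 0 to 1 genes. The number of all genes called, 833 in the reported fit, was 371 to 2031 without 1 sample. Dividing by all reads on genes gave 1730, against 255 with limma on log2(RPKM + 0.1) and 380 with exon-exon reads, an alternative chosen after seeing the data. The share of calls that were higher in ONC was 39.0% in the reported fit, 87.1% with division by all reads on genes, 74.1% and 81.4% with limma at the pseudocounts 0.1 and 1. Pathway genes called, 3 in the reported fit, numbered 10, all higher, with division by all reads on genes, and 2 to 5 without 1 sample.

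Casp6, -0.06 in the reported fit, turned to 0.0534 with division by all reads on genes, 0.0494 and 0.0316 with limma at 0.1 and 1 and 0.15 with total gene reads, and ranged from -0.227 to 0.0518 without 1 sample. Apaf1, 0.03 in the reported fit, turned to -0.0119 with total gene reads and -0.0556 with exon-exon reads, and ranged from -0.0481 to 0.0856 without 1 sample. In introns, Casp9 turned to -0.00809 with the sum of all reads on genes and ranged from -0.0223 to 0.244 without 1 sample, and Apaf1 turned to 0.00809 without TMM and ranged from -0.387 to 0.0759. The cause was not tested. Each value that had turned was within 1 SE of 0. The intron values of Casp2, Casp6 and Casp8 stayed above 0 under all 11 alternatives. That of Casp2 ranged from 0.375 to 1.06, with an adjusted p of 0.146 or more by edgeR's test. Its unadjusted p, above 0.05 in the reported fit, was under 0.05 in some alternatives, such as 0.0145 without sham replicate 1 (edgeR).

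In intron reads, 361 genes were called in the reported fit, 0 to 913 without 1 sample, 165 without TMM, 759 with the sum of all reads on genes and 1108 with every gene that had an intron read. The log2 ratio of summed markers, ONC against sham, was 0.48 for microglia, -0.45 for RGCs, -0.0555 for Müller glia and -0.00306 for photoreceptors on the TMM scale, against 0.66, -0.40, 0.08 and 0.14 as RPKM. With the replicate number as a block, 728 genes and 0 of the 5 were called, and Casp2 was at 0.22 (adjusted p = 0.462, edgeR). Same-numbered samples did not deviate together (r = -0.05, -0.04 and -0.01), which cannot exclude that they were handled together. The labels state no pairing. Depth limits Casp1, Casp4, Casp8 and Casp12, which had 33 exon reads or fewer in every sample.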
